A study of Homo sapiens with 23 samples.

Results

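Neural adhesion molecules of the immunoglobulin superfamily were followed in RNA-seq libraries of human thalamus organoids (ThOs), three-dimensional cultures steered towards thalamic tissue. The genes ALCAM, CNTN1, CNTN2, NCAM1, NRCAM, NFASC and L1CAM were chosen by name, and all 7 were among the 9497 genes listed in every library. The ThOs were grown from H1, a human embryonic stem cell line, and 12 libraries were used, in 6 groups of 2: the genotypes labelled WT, KO and OE, each at day 25 and at day 30 of culture. WT ThOs came from unedited H1 cells. KO ThOs came from H1 cells in which CRISPR-Cas9 had been directed at c-JUN (gene JUN), which forms AP-1 transcription factors with other basic leucine zipper proteins. OE ThOs came from the edited cells with c-JUN expressed again from a doxycycline-inducible construct, so that the KO and OE libraries share the edit, and OE differs from KO by the construct. The labels do not say whether the WT and KO cultures received doxycycline too, so an effect of the drug cannot be told apart from one of c-JUN in OE against KO or OE against WT. More than 1 knockout clone was made, and the labels do not say from which clone a KO or OE library came. Each library pooled 3 organoids, and nothing states that the 2 libraries of a group were separate differentiations, so the tests measure the spread between libraries, which may be partly technical. In whole organoids, fewer cells of a type and less RNA per cell cannot be told apart.

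These proteins sit on the surface of neurons and hold membranes together by binding themselves or each other through immunoglobulin-like domains. They guide growing axons, bundle them into fascicles and later organise the nodes and paranodes of myelinated fibres. Some are held in the membrane by a lipid anchor (the contactins), while L1CAM, NRCAM and NFASC cross it and bind ankyrin and the spectrin cytoskeleton inside the cell. The thalamus is built around long fibre tracts to and from the cortex, and its axons carry many of these molecules.

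The values are normalized whole-number scores without a unit. They are not treated as read counts, and whether they are scaled to gene length is not known. A level is therefore compared only between libraries and never between genes, and the sequencing depth is unknown. All libraries share a lowest value of 11, a median of 106 and a highest value of 9910. Differences are given as log2 fold changes of the value plus 1, from a limma fit of all 9497 genes with 1 mean per group. A gene was called at a Benjamini-Hochberg adjusted p under 0.05 over all genes with a difference of 2-fold or more.

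The libraries of 1 group ranked the genes alike in WT and OE, with Spearman's rho across genes of 0.936 to 0.959, and less alike in KO, with 0.821 at day 25 and 0.769 at day 30. Between the 2 KO libraries, 17.4% of genes at day 25 and 21.5% at day 30 stood at least 2-fold apart, against 1.75% to 4.45% in the other groups. The least typical library was KO day 30 replicate 2 (rho of 0.745 in the median against the 11 others). JUN (chromosome 1, 58776845 to 58784048) was at 128 to 162 in the 4 WT libraries, 196 to 353 in the KO libraries and 202 to 362 in the OE libraries. The edited gene was thus higher, not lower, in every library labelled KO than in every WT library, and its mRNA did not separate OE from KO (log2 fold change -0.03, SE 0.229). The mRNA values of JUN thus show neither a loss in KO nor the re-expression that the OE label names. They do not measure the protein. The study reported by western blot no c-JUN protein in the KO cell lines and its overexpression after induction. Its RT-qPCR found no c-JUN mRNA in KO neural progenitor cells and cerebral organoids, which are not the cultures used here. WT, KO and OE below stand for the libraries so labelled, and every direction drawn between them rests on those labels. The thalamic transcription factor TCF7L2 was at 109 to 465 over all libraries, and 9 of 15 thalamus markers were listed. The thalamus markers GBX2, OLIG3, LHX2, FOXP2, NEUROG2 and RORA were not among the genes analysed here.

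**Figure D1:**
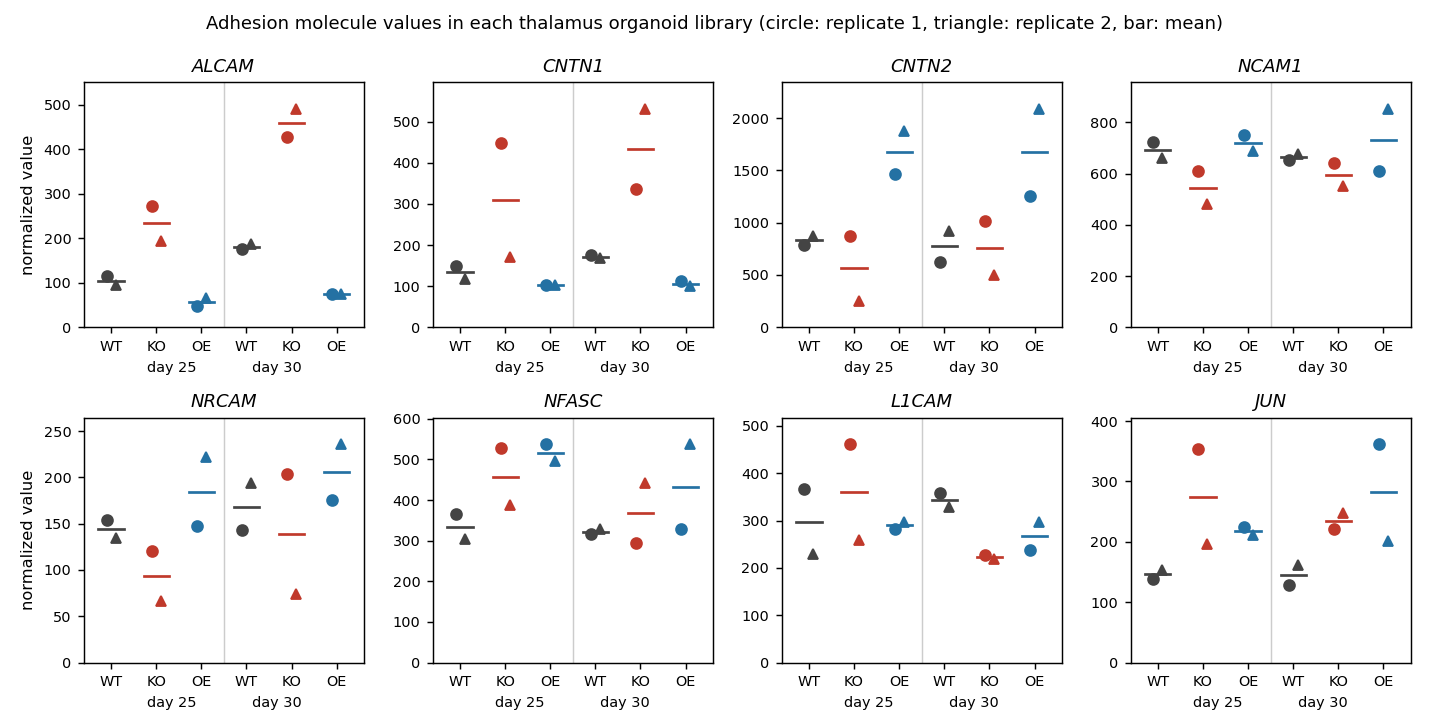
Normalized values (vertical axes, from 0, no unit) of the 7 adhesion molecules and of JUN in each of the 12 libraries, by genotype and day; circles are replicate 1, triangles replicate 2 and bars the mean of both. ALCAM was highest in KO and lowest in OE on both days, CNTN2 was highest in OE, and the KO libraries lay far apart for CNTN1, CNTN2 and NRCAM.

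ALCAM was the member that separated the genotypes most sharply: it fell in OE against KO on both days, by 4.95-fold over the mean of days, and ended below WT. ALCAM (CD166) is an activated leukocyte cell adhesion molecule that binds itself and CD6 and takes part in axon fasciculation and retinal axon guidance. The gene lies on the plus strand of chromosome 3 from 105366909 to 105576900 (GRCh38). In WT it was at 115 and 94 at day 25 and at 176 and 186 at day 30. In KO it was at 273 and 194 at day 25 and at 428 and 491 at day 30. In OE it was at 48 and 66 at day 25 and at 75 and 74 at day 30. All 4 OE libraries thus lay below all 4 WT libraries, and these below all 4 KO libraries. Of the 9497 genes, 11 (0.116%) were ordered in this way, among them the contactin CNTN4 and the tight junction gene CLDN1.

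The log2 fold change of ALCAM in OE against KO was -2.01 (SE 0.259, adjusted p = 0.018, limma) at day 25, -2.61 (SE 0.259, adjusted p = 0.00524, limma) at day 30 and -2.31 (SE 0.183, 95% interval -2.71 to -1.91, adjusted p = 0.000497, limma) over the mean of days. The value over the mean of days passed under all 20 alternatives, with adjusted p from 0.000262 to 0.0169. The call of day 25 was lost without OE day 25 replicate 1 (-1.79) or replicate 2 (-2.24), and that of day 30 without OE day 30 replicate 2 (-2.60). In OE against WT over the mean of days ALCAM fell by 1.07 on the log2 scale (SE 0.183, adjusted p = 0.0495, limma), and this call was lost in each of the 8 fits that left out a WT or OE library, with values from -1.18 to -0.96. KO against WT over the mean of days gave 1.24 (SE 0.183, 95% interval 0.84 to 1.64), larger than the spread between libraries but not called over all genes (adjusted p = 0.0642, limma). Leaving out KO day 25 replicate 2 gave 1.36 and leaving out KO day 30 replicate 1 gave 1.29, each with 1 KO library left at that day. The 3 comparisons share libraries in pairs, so their values are not independent of each other.

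The AP-1 binding letters TGANTCA and the related CRE letters TGACGTCA were searched on both strands of the promoter windows given for these genes by RefSeq (GRCh38.p14, 250 bases before to 50 bases after a transcription start). Windows were given for 6 of the 7 genes, 12 windows in all, several genes having more than 1 start, and NCAM1 had none. The CNTN1 windows (from 40827934 and 40908107, plus strand) lay inside the gene, which begins at 40692439. The L1CAM windows (up to 153876194 and 153876264, minus strand) lay inside the gene, which reaches 153886173. The outermost starts of CNTN1 and L1CAM were thus not searched. Over all 35116 windows of the annotation, 7.71% held TGANTCA and 1.85% held TGACGTCA. Over the 11737 windows of genes in the tables these shares were 4.86% and 2.98%. The ALCAM window (chr3:105366659-105366958, plus strand), shown because ALCAM moved most with genotype, was 70.0% G and C and held neither. Among the 12 windows, 1 held each motif, and it was the same one, at an internal start of NRCAM (chr7:108243336-108243635, minus strand). There TGAGTCA begins 60 bases before the start and TGACGTCA 47 bases before it, with 6 bases between them, both in capitals here. The match describes letters only, and binding of c-JUN was not analysed here.
ALCAM promoter: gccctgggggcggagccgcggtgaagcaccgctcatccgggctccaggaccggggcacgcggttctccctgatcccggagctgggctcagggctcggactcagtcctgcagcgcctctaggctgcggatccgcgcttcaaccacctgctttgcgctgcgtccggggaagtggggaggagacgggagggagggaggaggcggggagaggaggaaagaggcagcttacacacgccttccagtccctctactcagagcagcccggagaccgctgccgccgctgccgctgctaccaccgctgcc
NRCAM internal promoter: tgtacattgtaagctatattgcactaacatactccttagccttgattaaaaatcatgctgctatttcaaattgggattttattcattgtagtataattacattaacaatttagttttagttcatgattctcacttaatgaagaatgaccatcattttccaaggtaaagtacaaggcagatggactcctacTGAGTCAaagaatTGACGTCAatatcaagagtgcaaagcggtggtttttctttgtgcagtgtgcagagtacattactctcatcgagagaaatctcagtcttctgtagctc

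The contactins CNTN1 and CNTN2 moved in opposite directions in OE against KO. CNTN1, which on axons pairs with CASPR proteins and binds neurofascin across the paranode, fell by 3.26-fold over the mean of days, and CNTN2 (TAG-1, axonin-1), an early marker of outgrowing axons, rose 2.84-fold. CNTN1 lies on chromosome 12 (40692439 to 41072415) and CNTN2 on chromosome 1 (205042937 to 205078289). CNTN2 begins 20115 bases after the end of NFASC on the same strand.

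CNTN1 was at 150 and 118 in WT at day 25 and at 175 and 168 at day 30. The KO libraries were at 449 and 170 at day 25 and at 336 and 532 at day 30. The OE libraries were at 103 and 102 at day 25 and at 112 and 100 at day 30. The OE libraries lay below all WT and all KO libraries and close to each other, with a mean of 104.25 ± 5.32 (SD, n = 4), while KO and WT overlapped because KO day 25 replicate 2 lay among the WT libraries. OE against KO gave -1.71 (SE 0.273, 95% interval -2.31 to -1.11, adjusted p = 0.0133, limma) over the mean of days, and -1.42 at day 25 and -1.99 at day 30, neither called alone. The call over the mean of days was lost without OE day 25 replicate 1 (-1.71), OE day 25 replicate 2 (-1.70) or OE day 30 replicate 2 (-1.66), with adjusted p from 0.0544 to 0.0712 by limma, and with only the libraries compared. KO against WT gave 1.17 (SE 0.273, adjusted p = 0.174, limma), which passed without KO day 25 replicate 2 (1.52) or without KO day 30 replicate 1 (1.34). OE against WT gave -0.53 (95% interval -1.13 to 0.07).

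CNTN2 was at 789 and 877 in WT at day 25 and at 628 and 924 at day 30. The KO libraries held 877 and 249 at day 25 and 1012 and 504 at day 30. The OE libraries were at 1466 and 1880 at day 25 and at 1260 and 2092 at day 30. All 4 OE libraries lay above all WT and all KO libraries. OE against KO gave 1.5 (SE 0.354, 95% interval 0.73 to 2.28, adjusted p = 0.0441, limma) over the mean of days, 1.83 at day 25 and 1.18 at day 30. This call was the least stable of the 3: it was lost in 12 of 20 alternatives. Single libraries that ended it were KO day 25 replicate 2 (1.05 without it), KO day 30 replicate 2 (1.25) and each of the 4 OE libraries (1.32 to 1.69). Without both KO libraries of number 2, a setting tried once the values were known, the change was 0.80 (adjusted p = 0.0689, limma). OE against WT gave 1.04 (SE 0.354, 95% interval 0.27 to 1.82, adjusted p = 0.433, limma). This fold change does not use the KO libraries, but its SE and p rest on the spread in all libraries, KO included. It was called in 3 of 19 alternatives, among them the fit of only the libraries compared (adjusted p = 0.0341, limma). KO against WT gave -0.46 (95% interval -1.24 to 0.32), within the spread between libraries.

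**Figure D2:**
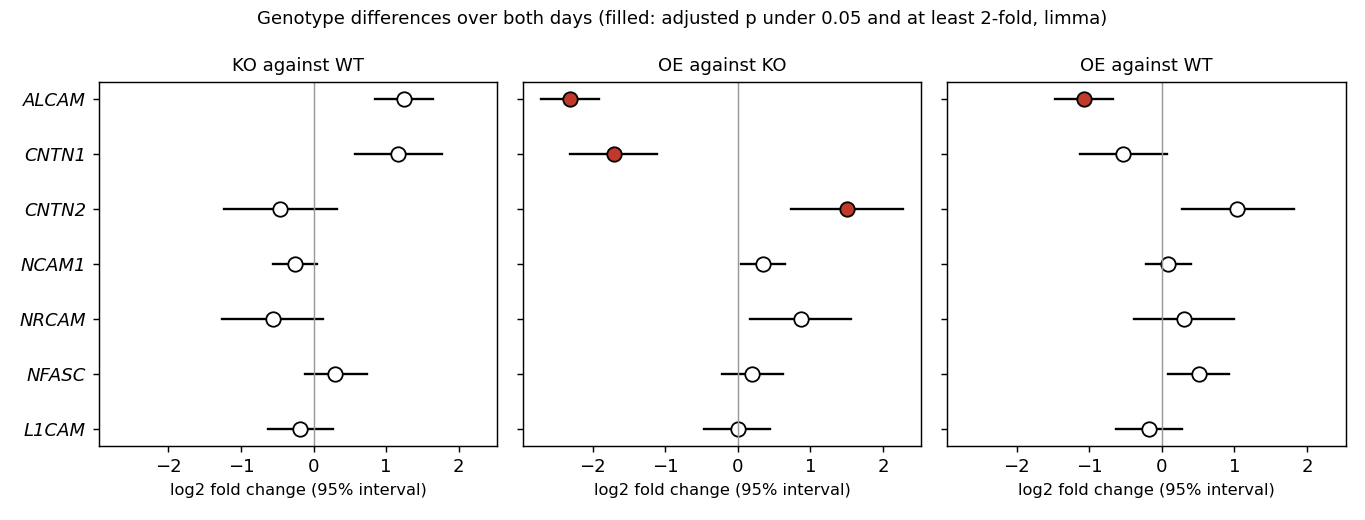
Log2 fold changes over the mean of days (horizontal axes) of the 7 adhesion molecules in the 3 genotype comparisons, with 95% intervals; filled points passed an adjusted p under 0.05 and 2-fold. ALCAM and CNTN1 lay above 0 in KO against WT and fell in OE against KO, CNTN2 rose in OE against KO, and the 4 other genes had no filled point.

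The balance of both contactins within a library was taken as the log2 value of CNTN2 minus that of CNTN1, a measure chosen after the values were seen and given as a description. Since levels are not compared between genes, its zero is given no meaning and only differences between libraries are read. It was 2.39, 2.88, 1.84 and 2.45 in the WT libraries. It was 0.96, 0.55, 1.59 and -0.08 in the KO libraries, and 3.82, 4.19, 3.48 and 4.37 in the OE libraries. No library of 1 genotype reached the range of another. Taking 2 genes known to move in opposite directions in OE against KO favours such a separation. How many other gene pairs separate the genotypes was not counted, and KO and WT overlapped for each contactin alone.

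Of the other contactins, CNTN4 was called. It fell by 4.12-fold in OE against KO over the mean of days (log2 fold change -2.04, SE 0.299, adjusted p = 0.00982, limma). CNTN4, a contactin of the olfactory and visual systems that binds amyloid precursor proteins, was at 64, 36, 54 and 48 in WT, at 89, 72, 136 and 112 in KO and at 32, 16, 32 and 18 in OE. Its genotype ranges did not overlap. CNTN3, CNTN5 and CNTN6 are named to complete the family, after their values were seen. CNTN6 was at 11 to 32 in WT, 37 to 62 in KO and 22 to 30 in OE, with a log2 fold change of -0.91 in OE against KO (adjusted p = 0.112, limma). Its KO against WT change was 1.05 (adjusted p = 0.193, limma), and its value of 11 is the lowest that any library holds. CNTN3 was at 19 to 106 and CNTN5 at 22 to 61 over the 12 libraries, and neither had an unadjusted p under 0.05 in KO against WT or OE against KO over the mean of days. KO against WT at day 25 (-1.38 for CNTN3, 0.95 for CNTN5) and OE against WT over the mean of days (-0.92 for CNTN3) were under it but not called.

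**Figure D3:**
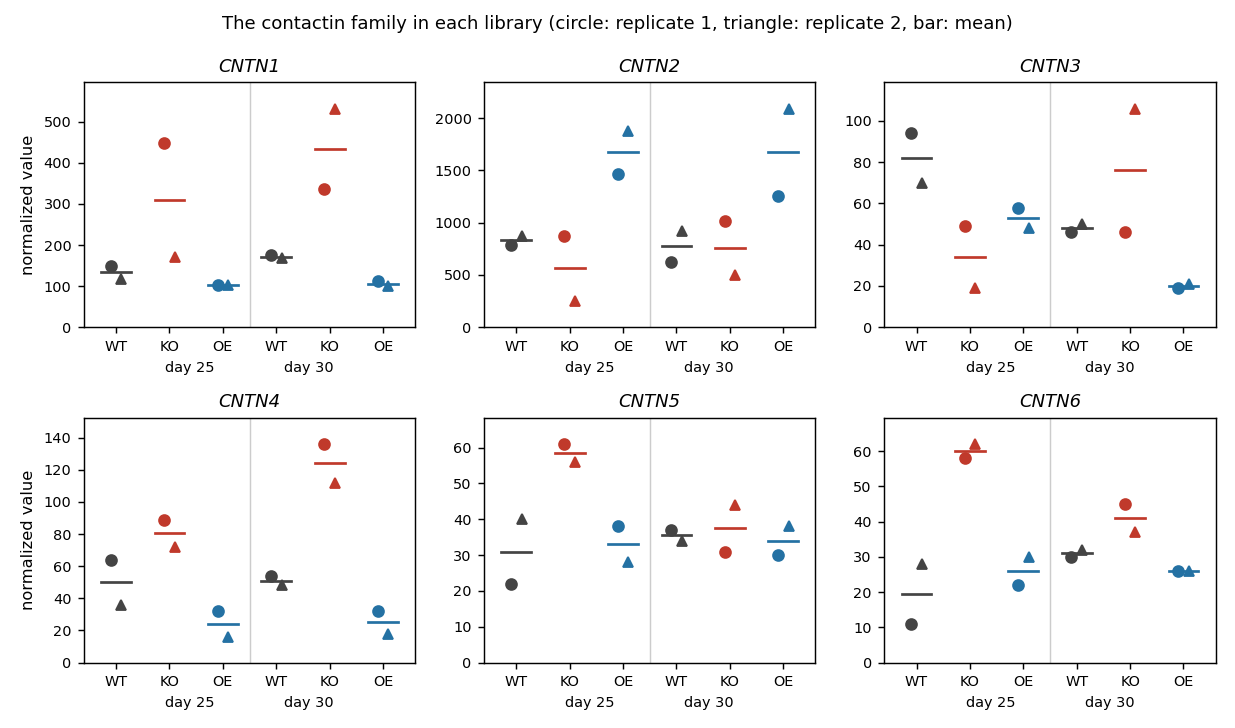
Normalized values (vertical axes, from 0, no unit) of the 6 contactins in each library, by genotype and day; circles are replicate 1, triangles replicate 2 and bars the mean. CNTN1 and CNTN4 were lowest in OE and CNTN2 was highest there.

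NCAM1, the neural cell adhesion molecule that carries polysialic acid on young neurons, held the narrowest range. The gene lies on chromosome 11 (112961247 to 113278436). It was at 722 and 660 in WT at day 25 and at 652 and 678 at day 30. In KO it was at 609 and 480 at day 25 and at 640 and 552 at day 30, and in OE at 750 and 690 and at 610 and 854. All KO libraries lay below all WT libraries, by little: KO against WT gave -0.26 (SE 0.14, 95% interval -0.56 to 0.05, adjusted p = 0.392, limma). OE against KO gave 0.35 (SE 0.14, 95% interval 0.04 to 0.65, adjusted p = 0.181, limma), and OE overlapped both other genotypes. The 95% intervals of NCAM1 in the 3 genotype comparisons over the mean of days all lay within 2-fold.

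NRCAM, NFASC and L1CAM are the ankyrin-binding members. NRCAM and NFASC gather sodium channels at axon initial segments and nodes of Ranvier, and L1CAM drives axon growth and fasciculation. None of them was called in any comparison. NRCAM (chromosome 7, 108147623 to 108456717) was at 154 and 135 in WT at day 25 and at 143 and 194 at day 30, and in OE at 147 and 222 and at 176 and 236. In KO it was at 120 and 66 at day 25 and at 204 and 74 at day 30, so that both low values came from the KO libraries of number 2. OE against KO gave 0.87 (SE 0.316, adjusted p = 0.148, limma) over the mean of days. This value ran from 0.51 without KO day 30 replicate 2 to 1.23 without KO day 30 replicate 1. It was 0.29 without both KO libraries of number 2.

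NFASC (chromosome 1, 204828651 to 205022822) was at 365 and 304 in WT at day 25 and at 317 and 328 at day 30. Its KO values were 528 and 387 at day 25 and 295 and 442 at day 30, and its OE values 538 and 496, then 328 and 538. The groups overlapped at day 30. OE against WT gave 0.51 (SE 0.194, 95% interval 0.08 to 0.93, adjusted p = 0.499, limma), and KO against WT 0.30. L1CAM (chromosome X, 153861514 to 153886173) was at 366 and 230 in WT at day 25 and at 358 and 328 at day 30. In KO it was at 462 and 260 at day 25 and at 228 and 220 at day 30, and in OE at 282 and 298 and at 238 and 298. Over the mean of days L1CAM gave -0.18 in KO against WT and 0.00 in OE against KO (95% interval -0.46 to 0.45), less than the spread between libraries. Its KO against WT change was 0.26 at day 25 and -0.61 at day 30, and the difference of these, -0.87 (SE 0.412, adjusted p = 0.802, limma), was not called.

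Counted over the 7 members, OE against KO over the mean of days had 3 calls (CNTN2 higher, ALCAM and CNTN1 lower), where 2.22% of all genes were called. At an unadjusted p under 0.05 there were 5 of 7, with NCAM1 and NRCAM added, against 22.2% of all genes. OE against KO had 1 call (ALCAM) at day 25, against 0.274% of all genes, and 1 (ALCAM) at day 30, against 0.0842%. At an unadjusted p under 0.05 these were 4 at day 25 (17.8% of all genes) and 3 at day 30 (10.9%). OE against WT had 1 call (ALCAM) over the mean of days, against 0.158% of all genes. It had 0 at day 25 (0% of all genes) and 0 at day 30 (0.0316%) by limma. At an unadjusted p under 0.05 the members were 3 over the mean of days (8.21% of all genes), 2 at day 25 (4.18%) and 1 at day 30 (4.07%).

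KO against WT had 0 members called by limma on either day or over the mean of days, where 0.0105% of all genes were called at day 25, 0% at day 30 and 0.0211% over the mean of days. ALCAM and CNTN1 had an unadjusted p under 0.05 in each, 2 of 7 members, against 13.4%, 7.36% and 15.2% of all genes. The difference of the KO change between days had 0 members called (0% of all genes) and 0 at an unadjusted p under 0.05 (5.63%). Genotypes whose 4 libraries did not overlap over both days were also counted. KO lay above WT for ALCAM (2.74% of all genes did so) and below WT for NCAM1 (3.14%). OE lay above KO for CNTN2 (5.17%) and below KO for ALCAM and CNTN1 (4.51%). OE lay above WT for CNTN2 (4.13%) and below WT for ALCAM and CNTN1 (4.34%).

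Between day 25 and day 30, with the genotypes averaged, 0 members were called by limma (0% of all genes) and 1, ALCAM, had an unadjusted p under 0.05 (11.3% of all genes). ALCAM was higher at day 30, by 0.73 (SE 0.149, 95% interval 0.40 to 1.06, adjusted p = 0.193, limma). The change was 0.79 in WT, 0.99 in KO and 0.40 in OE, and within each genotype both libraries of day 30 lay above both of day 25. The change of ALCAM in OE against KO differed between the days by -0.59 (SE 0.366, adjusted p = 0.848, limma), which was not called. The other members changed by -0.22 to 0.34 with day.

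The wider adhesion machinery was read from lists of genes. The 32 other immunoglobulin-family adhesion molecules included nectins, CADMs and SDKs. Of them, 1 (CNTN4) fell and 0 rose in OE against KO over the mean of days, where 2.22% of all genes were called. Their median was -0.23 where all genes had 0.01. At an unadjusted p under 0.05, 3 were higher and 5 lower, a share close to the 22.2% of all genes. Among 15 CASPR proteins and extracellular partners, 1 fell, CNTNAP4, a CASPR protein of interneuron synapses (-1.12, SE 0.258, adjusted p = 0.0424, limma). At an unadjusted p under 0.05, 3 of the 15 were higher and 3 lower. In KO against WT over the mean of days, 1 of them was higher and 6 lower at that threshold. Their median there was -0.44, and 15.2% of all genes passed. CNTNAP4 was at 42 to 74 in WT, 90 to 152 in KO and 43 to 85 in OE, so that its KO libraries lay above all others. Without overlap, KO lay above WT for 2.74% of all genes and above OE for 4.51%. The share that did both was not counted.

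In OE against WT over the mean of days, where 0.158% of all genes were called, TNC was the called gene of the partner list. TNC encodes tenascin C, a matrix protein that binds contactins, and it fell by 2.31 on the log2 scale (SE 0.382, adjusted p = 0.0467, limma). It was at 78 to 144 in WT, 11 to 51 in KO and 12 to 28 in OE, and thus lower in every KO and OE library than in any WT library, with KO against WT at -1.96 (adjusted p = 0.13, limma). CNTNAP2, the CASPR partner of CNTN2, was chosen after its values were seen. It was at 1742 to 2674 in WT, 1014 to 1604 in KO and 853 to 1332 in OE, and OE against WT gave -0.95 (SE 0.134, adjusted p = 0.0281, limma), short of 2-fold. All KO and OE libraries lay below all WT libraries for CNTNAP2, as for TNC. Without overlap, 3.14% of all genes lay lower in KO than in WT and 4.34% lower in OE than in WT. The share that met both was not counted.

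No cytoskeletal linker (14 genes, with the ankyrins, spectrins and ERM proteins) and no gene of shedding or polysialylation (10 genes) was called by limma in KO against WT, OE against KO or OE against WT over the mean of days. The linkers had 0 higher and 3 lower at an unadjusted p under 0.05 in OE against KO, again close to the 22.2% of all genes, with a median of -0.17. ST8SIA2 and ST8SIA4, the enzymes that add polysialic acid to NCAM1, were named after their values were seen. Their KO against WT changes were -0.73 (adjusted p = 0.228, limma) and -0.89 (adjusted p = 0.19, limma).

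**Figure D4:**
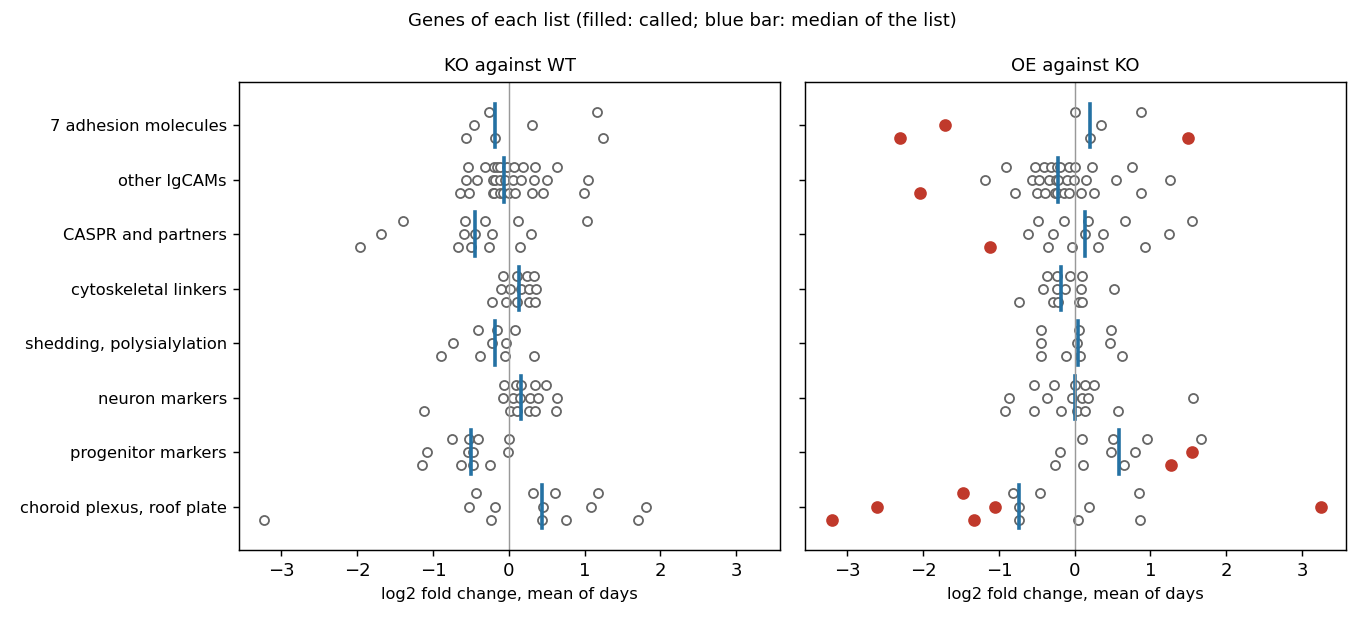
Log2 fold changes over the mean of days (horizontal axes) of the genes in 8 lists, in KO against WT and OE against KO; each point is a gene, filled points were called and blue bars are list medians. The medians of the 7 adhesion molecules were -0.18 and 0.20, with ALCAM, CNTN1 and CNTN2 at the edges in OE against KO. There the median was 0.58 for progenitor markers and -0.73 for choroid plexus and roof plate markers.

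Some markers of cell types differed between OE and KO over the mean of days, where 2.22% of all genes were called. In KO against WT no marker of these lists was called, where 0.0211% of all genes were called over the mean of days. There, at an unadjusted p under 0.05, 15.2% of all genes passed. Of 12 progenitor markers 0 were higher and 5 lower (median -0.50). Of 14 choroid plexus and roof plate markers 5 were higher and 1 lower (median 0.45). Of 17 neuron markers 2 were higher and 1 lower, and of 9 thalamus markers 2 were higher and 2 lower. The 12 progenitor markers listed, of 16, summed to 7564 to 15065 in WT, 4945 to 8336 in KO and 8669 to 9460 in OE. The highest WT sum came from VIM, which stood at 9910 in WT day 25 replicate 1, and the 3 other WT libraries summed to 7564 to 8625. Such sums follow the genes with the highest values most. In OE against KO, 2 progenitor markers rose, SOX2 (1.27) and the proliferation gene MKI67 (1.55), and 0 fell, with a median of 0.58. At an unadjusted p under 0.05, 7 were higher and 0 lower, where 22.2% of all genes passed. The 14 choroid plexus and roof plate markers listed, of 16, summed to 3679 to 6498 in WT, 3514 to 7529 in KO and 3270 to 7085 in OE. In OE against KO, 5 of them fell, with CLDN1 at -3.20, LMX1B at -2.61, MSX1 at -1.47 and KRT8 at -1.33, and RSPO2 rose by 3.25, with overlapping libraries. At an unadjusted p under 0.05, 2 of this list were higher and 6 lower. The 17 neuron markers listed, of 18, summed to 8524 to 12756 in WT, 10345 to 12831 in KO and 9875 to 14165 in OE, with a median of 0.00 in OE against KO and 0 called over the mean of days by limma (1 higher and 3 lower at an unadjusted p under 0.05). At day 25 the axon growth gene GAP43 of this list fell in OE against KO (-1.24, SE 0.202, adjusted p = 0.0439, limma). Over the mean of days GAP43 gave -0.92 (adjusted p = 0.0121, limma), short of 2-fold. It was at 442 to 898 in WT, 898 to 1332 in KO and 361 to 808 in OE. Of the 9 thalamus markers listed, CDH6, a cadherin of thalamic nuclei, fell in OE against KO over the mean of days (-1.91, SE 0.313, adjusted p = 0.0147, limma) and 0 rose, with a list median of 0.34. At an unadjusted p under 0.05, 0 thalamus markers were higher and 2 lower. CDH6 was at 132 to 396 in WT, 380 to 640 in KO and 80 to 207 in OE. Of 12 mesenchyme and meninges markers 3 were listed, and the collagens COL1A1 and COL3A1 were not among the genes analysed here. Because the tables list only genes above 10 in every library, no marker could be at 0. The part of these cell types in the changes of ALCAM, CNTN1 and CNTN2 was not tested.

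Over the 12 libraries, ALCAM and CNTN1 varied together (Pearson's r of the log2 values 0.93), and CNTN2, NRCAM and NCAM1 formed the other set that varied together (0.80 to 0.87). ALCAM and CNTN2 had r = -0.60. NFASC and L1CAM followed neither set, with r between -0.29 and 0.35 to every other member. The points share 3 genotypes and KO libraries that lie apart, so these values describe this sample set. Of the 9497 genes, the 3 most like ALCAM were PRKCB (0.98), PTPRU (0.97) and CCPG1 (0.97), and those most like CNTN1 were KCND2 (0.96), WNT1 (0.95) and PRKCB (0.95). PRKCB was thus near both. Those most like CNTN2 were ACAT2 (0.96), MCM6 (0.96) and NR2F1 (0.95), and those most like NRCAM were RSRC2 (0.96), PRKAB2 (0.95) and BNIP2 (0.95). For NCAM1 they were FSD1L (0.92), RBM6 (0.91) and ZFHX3 (0.89). For NFASC they were ARID3B (0.92), POU2F2 (0.81) and RBBP5 (0.80), and for L1CAM CDK5R1 (0.90), MIEF1 (0.88) and ERC2 (0.85).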

How the data were processed

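For each RNA-seq library the authors deposited a table of genes with identifier, position, strand and 1 value. Per the labels, RNA of 3 pooled organoids was extracted with TRIzol for a stranded total RNA kit, and the submitters' processing notes name bcl2fastq, RSEM and Bowtie2. The deposited values are treated as a normalized score and not as counts: they are whole numbers with nearly the same distribution in all 12 libraries, as quantile normalization would leave, and only genes above 10 everywhere are listed. How they were normalized is not given in the sources used here, and such a step removes shifts common to all genes. The notes name hg19, but the positions match GRCh38: of 9497 genes 9386 matched a RefSeq GRCh38.p14 symbol, and 9386 overlapped its position. The other 11 samples (ATAC-seq, CUT&Tag) were not analysed here.

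The fit used limma 3.58.1 (R 4.3.3) on log2(value + 1): 6 group means, an intensity trend, 6 residual and 5.29 prior degrees of freedom, two-sided tests and Benjamini-Hochberg adjustment over all genes within a comparison. A filter (at least 1 in at least 2 libraries) removed 0 genes. A call needed an adjusted p under 0.05 and 2-fold, and the difference between days the adjusted p alone. The script was tested on simulated data with the same spread in every group. That test does not cover the wider spread of the KO libraries, so it does not show the error rate of comparisons with KO. Members and lists were chosen with earlier results of these data known. Named were the 7 members, list genes that were called (at most 5 per list and comparison), the 3 genes most like each member, JUN, and genes said in the text to be chosen later.

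Alternatives were other thresholds, leaving out single libraries, fitting only the libraries compared, library weights, no intensity trend, the replicate number as a block, median centring, a further quantile normalization, pseudocounts of 0.1 and 5, no filter and a mean of at least 50. A weight for the KO libraries against the others, and leaving out both KO libraries of number 2, were added after the data were seen.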

Additional observations from a re-analysis of the deposited data

How the results depend on the processing

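Counts of the 7 members called are given first. With the threshold as an unadjusted p under 0.05 and 2-fold, KO against WT had 2 at day 25, 2 at day 30 and 2 over the mean of days. OE against KO then had 4 at day 25 and 3 at day 30, and OE against WT had 1 at day 30 and 2 over the mean of days. The share of all genes at this threshold was not counted. With only the libraries compared, OE against KO had 0 at day 25, 0 at day 30 and 1 over the mean of days. Of all genes 0, 0 and 11 were then called. OE against WT had 2 over the mean of days, where 68 of all genes were called. Library weights gave 0 for OE against KO at day 25. For OE against WT they gave 1 at day 30 and 2 over the mean of days. With 1 weight for the KO libraries and 1 for the others, these counts were the same. Over all genes, library weights called 1, 52 and 91 in these comparisons, and the weight for KO 1, 34 and 92. Without an intensity trend, OE against WT over the mean of days had 0, where 4 of all genes were called. Without both KO libraries of number 2, KO against WT over the mean of days was 1.31 for ALCAM and 1.36 for CNTN1. That fit left 1 KO library a day, so counts of members called in it are not given. With 1 library left out at a time, the calls of members moved in KO against WT at day 30 and over the mean of days. They also moved in OE against KO, and OE against WT over the mean of days kept no member call. Calls over all genes moved too, and rose most in comparisons with KO when KO day 30 replicate 1 was left out. Each such fit left 1 library in a group, so its counts are not given. Other pseudocounts, filters and scalings changed no count of members called by over 1.5 times. The cause was not tested.

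Replicate numbers were not stated to pair the libraries. Deviations of same-numbered libraries of a day correlated at -0.069 to 0.262. With the replicate number as a block, OE against WT over the mean of days had 0 members called, as ALCAM had an adjusted p of 0.0866, and OE against KO over the mean of days had 2, as CNTN2 had an adjusted p of 0.0617 (limma). The block changed no other call of a member. Over all genes it called 5 in OE against WT and 139 in OE against KO over the mean of days.

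The changes of direction all came from leaving out libraries, and none was in a called value. Without both KO libraries of number 2, KO against WT for CNTN2 was 0.08 at day 25, 0.41 at day 30 and 0.24 over the mean of days, for NRCAM 0.29 at day 30 and 0.01 over the mean of days, for NFASC -0.13 at day 30 and for L1CAM 0.04 over the mean of days. OE against KO for NFASC at day 25 was then -0.03, and the difference of the KO change between days was -0.15 for ALCAM and -0.78 for CNTN1. With 1 library left out, KO against WT at day 25 ran from -1.74 to 0.08 for CNTN2 and from -0.16 to 0.67 for L1CAM. At day 30 it ran from -0.59 to 0.41 for CNTN2, from -1.16 to 0.29 for NRCAM and from -0.13 to 0.45 for NFASC, and over the mean of days from -0.38 to 0.03 for L1CAM. OE against KO lay between -0.03 and 0.42 for NFASC at day 25, between -0.14 and 0.57 for NFASC at day 30, and between -0.67 and 0.16 for L1CAM at day 25. OE against WT for NCAM1 lay between -0.01 and 0.12 (day 25), between -0.12 and 0.36 (day 30) and between -0.03 and 0.21 (mean of days). Day 30 against day 25 ran from -0.15 to 0.45 for CNTN2 and from -0.05 to 0.11 for NCAM1. The difference of the KO change between days ran from -0.05 to 0.44 for ALCAM, from -0.45 to 0.95 for CNTN1, from -0.17 to 1.64 for CNTN2, from -0.47 to 0.98 for NRCAM and from -0.57 to 0.01 for NFASC.

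With 2 libraries a group and unknown depth, no counting error can be given, and where a fit left 1 library in a group, that library was assumed to vary like the others.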
